A study of Mus musculus with 24 samples.

Results

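The 40 genes described here form a list named for the building of mucin sugar chains. They were taken by name, with each gene identifier of the count files matched to its mouse symbol. Not all act mainly on mucins: St6gal1 acts mainly on N-glycans, Fut8 on N-glycans and B3gnt5 mainly on glycolipids. All 40 were found among the 45513 genes of the files. They comprise 10 enzymes that start the chain, 2 that make core 1, 3 core 2 branching enzymes, 1 core 3 enzyme, 5 that extend chains, 2 that add a terminal N-acetylgalactosamine (GalNAc), 7 sialyltransferases, 4 fucosyltransferases, 2 sulphotransferases, 3 genes that supply sialic acid and the membrane protease gene Tmprss2, which is not a transferase.

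RNA was sequenced from 24 libraries of mouse intestinal epithelium in 4 groups of 6. All mice carried CreERT2 downstream of Atoh1, the transcription factor that specifies secretory cells, and the reporter R26RtdTom. In WT mice the Atoh1 allele was Atoh1(WT)CreERT2, and in 9S/T-A mice it was Atoh1(9S/T-A)CreERT2, in which alanine replaces the serine or threonine at 9 proline-directed phosphorylation sites. Per the study the knock-in alleles were homozygous, and the mice were adults of both sexes on a C57BL/6 background. All mice received a single injection of 3 mg tamoxifen, and live cells positive for EpCAM (an epithelial surface protein) and tdTom were sorted 24 h later from the proximal small intestine (SI) or the colon. Because Cre was driven from the Atoh1 locus, tdTom+ cells were those that had expressed Atoh1, so the sort held several secretory cell types. Nothing in the labels states that the libraries came from separate mice, so p-values measure the spread between these libraries.

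Mucin-type O-glycans start when a GALNT enzyme attaches GalNAc to serine or threonine of a protein in the Golgi. C1GALT1 then adds galactose to give core 1, or B3GNT6 adds N-acetylglucosamine (GlcNAc) to give core 3, and GCNT enzymes branch these cores. Chains are lengthened by GlcNAc and galactose transferases and capped with sialic acid, fucose, GalNAc or sulphate. In goblet cells these sugars make up much of the mass of the secreted mucin MUC2 and govern how the mucus gel binds water and bacteria.

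The libraries held 35967875 to 65796932 counts assigned to genes. Levels are given as RPKM (read counts divided by exon length in kilobases and by library size after TMM scaling), which allows genes of different length to be compared, or as CPM, the same scaled counts without the division by length, where only libraries are compared. The sorted identity was checked on goblet, Paneth and other markers. Summed goblet markers (Muc2, Tff3, Fcgbp and 5 others) ran from 314996 to 507939 CPM in SI, against 35971 to 82291 CPM in colon. Summed Paneth markers (Lyz1, Mmp7, Itln1, Ang4 and 6 defensin genes) ran from 51911 to 106107 CPM in SI, against 182 to 1483 CPM in colon. The 7 leukocyte markers summed to 1552 to 2872 CPM in SI. In colon they summed to 8.84 to 17.3 CPM in WT and to 15.3 to 472 CPM in 9S/T-A. These scaled sums are not shares of the counts of a library. Between tissues, 6 of the 8 goblet markers were called lower in colon in each genotype, as were 10 of the 10 Paneth markers in WT and 9 in 9S/T-A. The part of these other cells in the differences between tissues was not tested, and in bulk RNA fewer cells of a type and less RNA per cell cannot be told apart.

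Among the 40 genes, Galnt2 could not be measured. Of its 4282 exon bases, 90% are shared on the same strand with the annotated gene Gm20388, the counting command left reads in such overlaps unassigned, and only 58 counts remained over all 24 libraries. The other 39 genes shared no exon bases with another gene on their strand and passed the filter on low counts in each comparison. Sialyltransferase gene St6galnac1 was at the lower limit, with group means of 0.116 to 0.239 RPKM, and 34.9% of its 50-base stretches also occur in the pseudogene Gm11735.

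**Figure D1:**
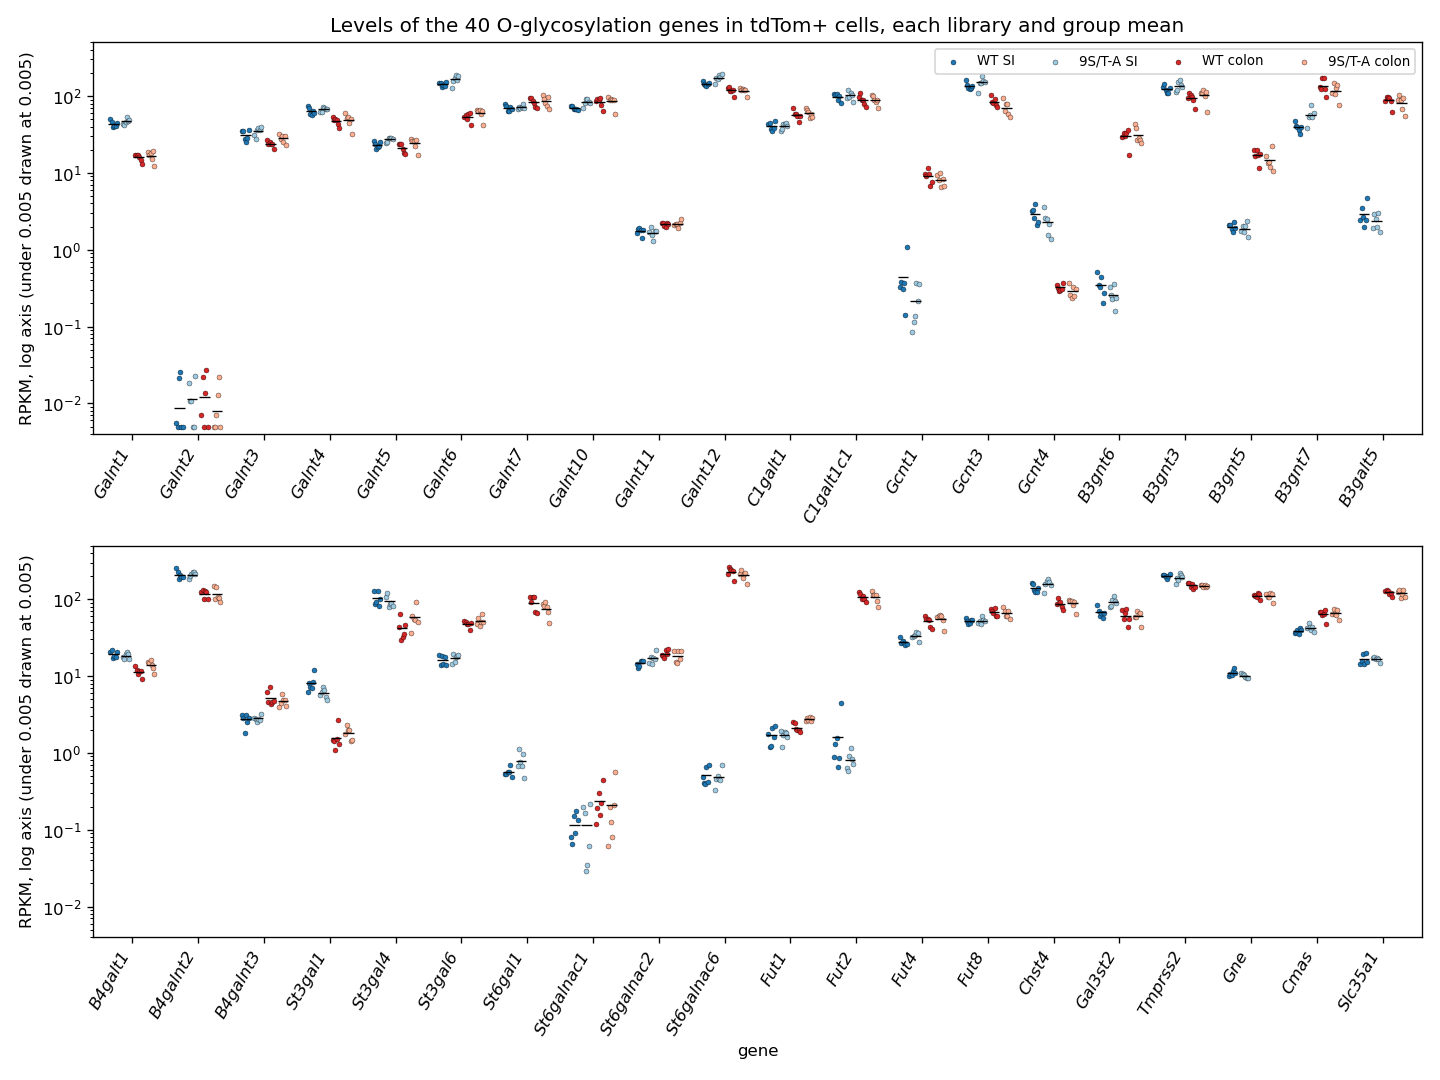
RPKM (log axis) of each of the 40 genes in each of the 24 libraries, coloured by group, with a line at each group mean; values under 0.005 are drawn at 0.005. Galnt2 sits at the bottom in all groups, and St6galnac6 rises from a mean of 0.511 RPKM in WT SI to 228 RPKM in WT colon.

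In SI B4galnt2, which adds GalNAc to make the Sda antigen, had the highest level of the 40 genes after division by length. It held 209.6 RPKM ± 25.7 (SD, n = 6) in WT and 209.6 ± 16.5 (SD, n = 6) in 9S/T-A. Tmprss2, Galnt12, Galnt6, Chst4, Gcnt3 and B3gnt3 followed in the same order in both genotypes, from 201 down to 123 RPKM in WT. Neighbours in that order overlapped between libraries except Tmprss2 and Galnt12 in WT. In colon the highest was St6galnac6, with 228 RPKM ± 31.5 (SD, n = 6) in WT and 206 ± 29.8 (SD, n = 6) in 9S/T-A, and its libraries did not overlap those of the next gene, Tmprss2.

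The comparison of colon with SI asked how secretory cells of the 2 tissues differ in these enzymes. In WT, 34 of the 39 genes passed the threshold (adjusted p under 0.05), against 63.6% of all genes tested; 20 were higher in colon (33.1% of all genes) and 14 lower (30.4%). In 9S/T-A, 33 passed, against 60.9% of all genes; 18 were higher (32.9% of all genes) and 15 lower (28.0%). A difference of at least 2-fold was called for 17 genes in WT, where it was called for 23.9% of all genes, and for 16 in 9S/T-A, where it was called for 23.8%. The median absolute log2 fold change (log2FC) was 0.86 over the 39 genes and 0.47 over all genes in WT, and 0.71 and 0.49 in 9S/T-A. Both genotypes called 17 genes higher and 14 lower in colon, and no gene was called in opposite directions. The share of all genes called alike in both genotypes was not computed, for these counts or for those below. Scaling by plain library totals in place of TMM moved the median log2FC of all genes from 0.03 to 0.74 in WT and from 0.04 to 0.85 in 9S/T-A, and the share of all calls that were higher in colon from 52.1 to 86.6% and from 54 to 88.4%. Under it 6 of the called genes changed sign in WT and 8 in 9S/T-A, each named where its direction is given.

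**Figure D2:**
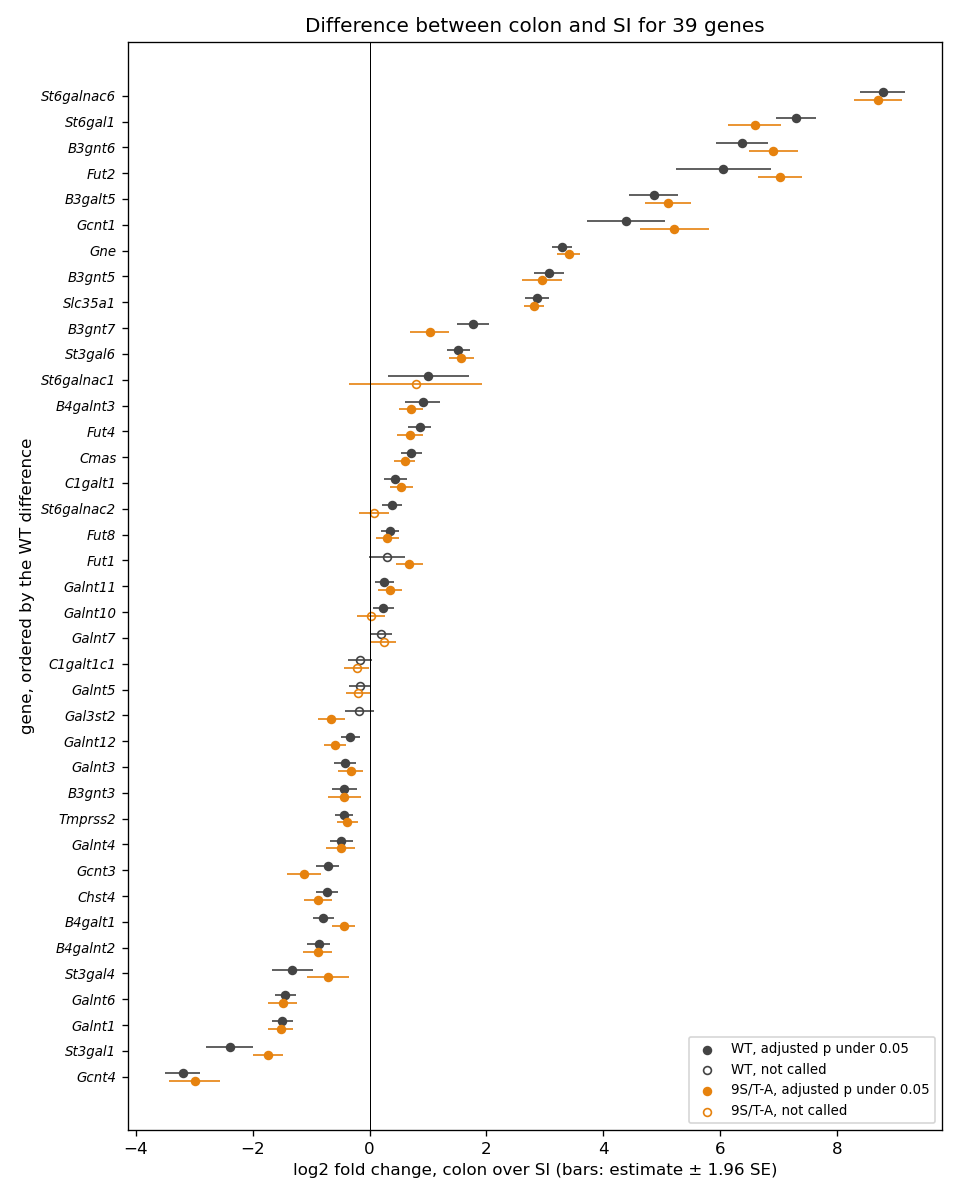
log2FC of colon over SI for 39 genes, in WT (grey) and 9S/T-A (orange), with 95% intervals and filled points for adjusted p under 0.05. St6galnac6, St6gal1, B3gnt6 and Fut2 stand at the top, with 6.05 to 8.77 in WT, and Gcnt4 at the bottom with -3.20.

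Of the 39 genes, 11 were at least 2-fold higher in colon in both genotypes: St6galnac6, St6gal1, St3gal6, Gne, Slc35a1, B3gnt6, Gcnt1, B3gnt5, B3gnt7, B3galt5 and Fut2. Promoters of the 5 sialic acid genes among them (St6galnac6, St6gal1, St3gal6, Gne and Slc35a1) and of Cmas are shown here because these genes were all called higher in colon. RefSeq promoter sequences on GRCm38.p6 matched 29 of the 40 genes; no match was held for Galnt1, Galnt2, Galnt4, Galnt12, C1galt1c1, Gcnt3, B3gnt6, St3gal1, St6galnac1, St6galnac2 and Fut2. Of the 11 genes, St6gal1, Gcnt1 and B3galt5 had 3 annotated starts, and St3gal6 and Gne had 2. The start nearest the 5′ end of the gene was used, and which start these cells use was not tested. The lines give the 250 bases before that start for these 6 genes, 5′ to 3′ along the gene. Capitals mark TTTAT or its reverse complement ATAAA, the letters at the core of the sites of CDX and posterior HOX factors.
St6galnac6, chr2:32599459-32599708 (plus strand): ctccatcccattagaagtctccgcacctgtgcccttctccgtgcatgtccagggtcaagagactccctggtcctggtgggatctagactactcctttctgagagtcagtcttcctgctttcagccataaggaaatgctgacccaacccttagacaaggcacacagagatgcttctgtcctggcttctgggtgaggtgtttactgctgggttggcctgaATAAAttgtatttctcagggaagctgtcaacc
St6gal1, chr16:23224490-23224739 (plus strand): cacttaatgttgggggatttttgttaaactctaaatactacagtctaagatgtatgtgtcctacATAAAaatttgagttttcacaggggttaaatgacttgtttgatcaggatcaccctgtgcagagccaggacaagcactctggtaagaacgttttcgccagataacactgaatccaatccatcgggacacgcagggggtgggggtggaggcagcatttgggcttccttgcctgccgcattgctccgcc
St3gal6, chr16:58524254-58524503 (minus strand): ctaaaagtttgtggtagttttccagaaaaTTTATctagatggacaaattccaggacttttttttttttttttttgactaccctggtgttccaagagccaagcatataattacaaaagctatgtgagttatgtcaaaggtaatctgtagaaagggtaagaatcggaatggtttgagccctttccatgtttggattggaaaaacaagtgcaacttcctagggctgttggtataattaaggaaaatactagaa
Gne, chr4:44084178-44084427 (minus strand): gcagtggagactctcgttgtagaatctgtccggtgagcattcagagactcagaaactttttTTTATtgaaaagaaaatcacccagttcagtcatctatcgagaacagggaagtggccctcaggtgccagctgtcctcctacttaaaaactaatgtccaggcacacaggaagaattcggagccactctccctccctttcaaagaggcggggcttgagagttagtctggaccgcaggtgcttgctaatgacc
Slc35a1, chr4:34687439-34687688 (minus strand): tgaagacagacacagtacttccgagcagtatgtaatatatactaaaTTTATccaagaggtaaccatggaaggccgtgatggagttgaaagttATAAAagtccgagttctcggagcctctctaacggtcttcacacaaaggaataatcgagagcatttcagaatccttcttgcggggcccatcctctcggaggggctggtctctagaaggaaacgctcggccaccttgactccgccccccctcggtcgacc
Cmas, chr6:142756436-142756685 (plus strand): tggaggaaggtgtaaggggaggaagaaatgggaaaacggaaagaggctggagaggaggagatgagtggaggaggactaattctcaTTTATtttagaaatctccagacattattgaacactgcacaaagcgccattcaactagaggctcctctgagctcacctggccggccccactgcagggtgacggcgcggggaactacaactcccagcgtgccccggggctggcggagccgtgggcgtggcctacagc

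These letters stood in the window of 8 of the 9 matched genes among the 11, and in 12 of all 29 matched genes, while 37.3% of all 32851 RefSeq windows of that length held them. The exception was B3gnt5. Of the 2 matched genes that were at least 2-fold lower in colon, Galnt6 and Gcnt4, neither window held them. Of the matched genes called in both genotypes but under 2-fold in one or both, 2 of the 6 higher in colon (Fut8 and Cmas) and 2 of the 7 lower (B4galnt2 and Chst4) held them. The motif in capitals was chosen after the levels were known, and a match is a run of letters, not a bound site. All 6 windows printed above held it. Those of B3gnt5, Galnt11, C1galt1, B4galnt3 and Fut4, also called higher in colon in both genotypes, did not and are not printed. Another motif, a GC-rich run of 6 letters, was searched in the same windows. It stood in 15 of the 29 matched genes, in 3 of the 9, in Galnt6 and Gcnt4, and in 32.7% of all RefSeq windows.

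St6galnac6, which adds sialic acid to the GalNAc or GlcNAc of a chain, showed the largest difference of the 39 genes. Its RPKM was 0.399 at the lowest, 0.454 at the median and 0.69 at the highest library in WT SI, and 172, 236 and 264 in WT colon. In 9S/T-A it was 0.332, 0.46 and 0.706 in SI, and 156, 214 and 243 in colon. The tissues were far apart in every library. edgeR gave a log2FC of 8.77 (SE 0.20, adjusted p = 1.93e-14) in WT and 8.70 (SE 0.21, adjusted p = 5.85e-14) in 9S/T-A.

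St6gal1, which adds sialic acid in α2,6 linkage to galactose, mainly on N-glycans, showed the next largest difference in WT. WT SI libraries held 0.481, 0.548 and 0.7 RPKM (lowest, median, highest), and WT colon libraries 66.3, 98.8 and 107. In 9S/T-A the values were 0.475, 0.716 and 1.11 in SI, and 48.5, 80.2 and 91.1 in colon. No SI library reached a colon library, with a log2FC of 7.29 (SE 0.18, adjusted p = 4.63e-14) in WT and 6.59 (SE 0.23, adjusted p = 2.97e-12) in 9S/T-A. The difference between these 2 fold changes was -0.72 (95% interval -1.21 to -0.23), with an adjusted p of 0.263.

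St3gal6, which adds sialic acid in α2,3 linkage to galactose, rose from 16.3 RPKM ± 2.33 (SD, n = 6) in WT SI to 47.6 ± 3.94 (SD, n = 6) in WT colon. Its libraries ran between 13.8 and 18.7 RPKM in WT SI, 40.3 and 51.6 in WT colon, 14.5 and 19.4 in 9S/T-A SI, and 45.2 and 64.7 in 9S/T-A colon, so the tissues did not overlap. Its log2FC was 1.52 (SE 0.10, adjusted p = 2.88e-09) in WT and 1.57 (SE 0.11, adjusted p = 9.34e-09) in 9S/T-A.

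St3gal1 and St3gal4 went the other way. St3gal1, which caps core 1 galactose with sialic acid, held 6.12, 7.61 and 11.8 RPKM (lowest, median, highest) in WT SI, and 1.11, 1.45 and 2.66 in WT colon. In 9S/T-A it held 4.9, 5.94 and 7.24 in SI, and 1.42, 1.87 and 2.32 in colon. It was lower in colon without overlap, by a log2FC of -2.39 (SE 0.20, adjusted p = 6.42e-08) in WT and -1.74 (SE 0.13, adjusted p = 2.33e-08) in 9S/T-A. St3gal4, another α2,3 sialyltransferase and the most abundant of the 7 in SI, had means of 102 RPKM in WT SI and 41.9 in WT colon, with a log2FC of -1.32 in WT and -0.71 in 9S/T-A; the latter changed sign when libraries were scaled by their plain totals.

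The 7 sialyltransferases summed to 143 RPKM in WT SI (122 to 167 over libraries) and to 430 in WT colon (357 to 490). Within that sum the leading gene changed. St3gal4 made up 71.4% ± 4.33 (SD, n = 6) in WT SI and 9.77% ± 2.74 (SD, n = 6) in WT colon, and St6galnac6 0.357% ± 0.0707 (SD, n = 6) and 53% ± 3.78 (SD, n = 6). In 9S/T-A St3gal4 made up 68.9% in SI and 14.1% in colon, and St6galnac6 0.362% and 49.8%. St6gal1 took 21% of the sum in WT colon. Without the division by length, St3gal4 took 45.2% of the summed CPM in WT SI and 4.14% in WT colon, and St6galnac6 0.536% and 53%.

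The genes that supply sialic acid were higher in colon as well. Gne, the bifunctional enzyme that starts sialic acid synthesis, had WT SI libraries at 10.1, 10.7 and 12.7 RPKM (lowest, median, highest) and WT colon libraries at 97.2, 112 and 120. In 9S/T-A the libraries spanned 9.32 to 11 RPKM in SI, against 88.6 to 120 in colon. All colon libraries stood far above all SI libraries, with a log2FC of 3.30 (SE 0.09, adjusted p = 1.13e-13) in WT and 3.41 (SE 0.10, adjusted p = 3.87e-13) in 9S/T-A.

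Slc35a1, the Golgi transporter of CMP-sialic acid, had 14.2, 15.7 and 20.1 RPKM in WT SI and 106, 126 and 132 in WT colon. Its log2FC was 2.86 (SE 0.10, adjusted p = 3.12e-12) in WT. It was 2.81 (SE 0.09, adjusted p = 1.06e-12) in 9S/T-A, where libraries spanned 14.9 to 17.9 RPKM in SI, against 104 to 133 in colon. No library of one tissue reached those of the other. Cmas, which activates sialic acid to CMP-sialic acid, rose less, from 38.4 RPKM ± 2.51 (SD, n = 6) to 64.3 ± 8.53 (SD, n = 6) in WT, with a log2FC of 0.71 in WT and 0.60 in 9S/T-A, both called.

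The core 3 gene and the 3 core 2 genes were all called between tissues in both genotypes. B3gnt6, the core 3 enzyme, was at 0.204, 0.337 and 0.517 RPKM (lowest, median, highest) in WT SI and at 16.9, 31.7 and 36 in WT colon. In 9S/T-A it was at 0.162, 0.243 and 0.354 in SI and at 24.2, 27.8 and 43.2 in colon. Every colon library was above every SI library. This was a log2FC of 6.37 (SE 0.23, adjusted p = 2.3e-12) in WT and 6.90 (SE 0.21, adjusted p = 8.42e-13) in 9S/T-A.

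Gcnt1, a core 2 enzyme, was at 0.142, 0.351 and 1.08 RPKM in WT SI and at 6.79, 9.35 and 11.7 in WT colon. In 9S/T-A it was at 0.0847, 0.177 and 0.367 in SI and at 6.51, 8.17 and 9.84 in colon. The tissues did not overlap, and the highest WT SI value came from replicate 7 alone. The model gave a log2FC of 4.39 (SE 0.34, adjusted p = 2.19e-08) in WT and 5.21 (SE 0.30, adjusted p = 9.95e-10) in 9S/T-A.

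Gcnt4, another core 2 enzyme, was the gene most reduced in colon. It was at 2.09, 2.9 and 3.92 RPKM in WT SI and at 0.289, 0.315 and 0.374 in WT colon, and in 9S/T-A at 1.36, 2.34 and 3.57 in SI and at 0.233, 0.283 and 0.371 in colon. The tissues did not overlap, with a log2FC of -3.20 (SE 0.15, adjusted p = 8.01e-11) in WT and -2.99 (SE 0.22, adjusted p = 1.56e-08) in 9S/T-A. Gcnt3, which can branch core 1 and core 3, remained the leading gene of this group in both tissues, with 136 RPKM ± 14.7 (SD, n = 6) in WT SI and 84.8 ± 11.4 (SD, n = 6) in WT colon. Its fold change of -0.72 (log2) in WT was called but changed sign under plain totals, while that of -1.11 in 9S/T-A was called and did not.

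As shares of the summed RPKM of these 4 genes, Gcnt3 took 97.4% ± 0.595 (SD, n = 6) in WT SI and 68.4% ± 4.08 (SD, n = 6) in WT colon. B3gnt6 took 0.249% ± 0.0686 (SD, n = 6) in WT SI and 23.9% ± 4.42 (SD, n = 6) in WT colon. In 9S/T-A B3gnt6 took 0.175% in SI and 28.3% in colon. The shares in colon libraries ran from 17.4 to 30% in WT and from 23.3 to 34.9% in 9S/T-A, so the genotypes overlapped. Of the summed CPM, B3gnt6 took 0.137% in WT SI and 14.5% in WT colon.

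**Figure D3:**
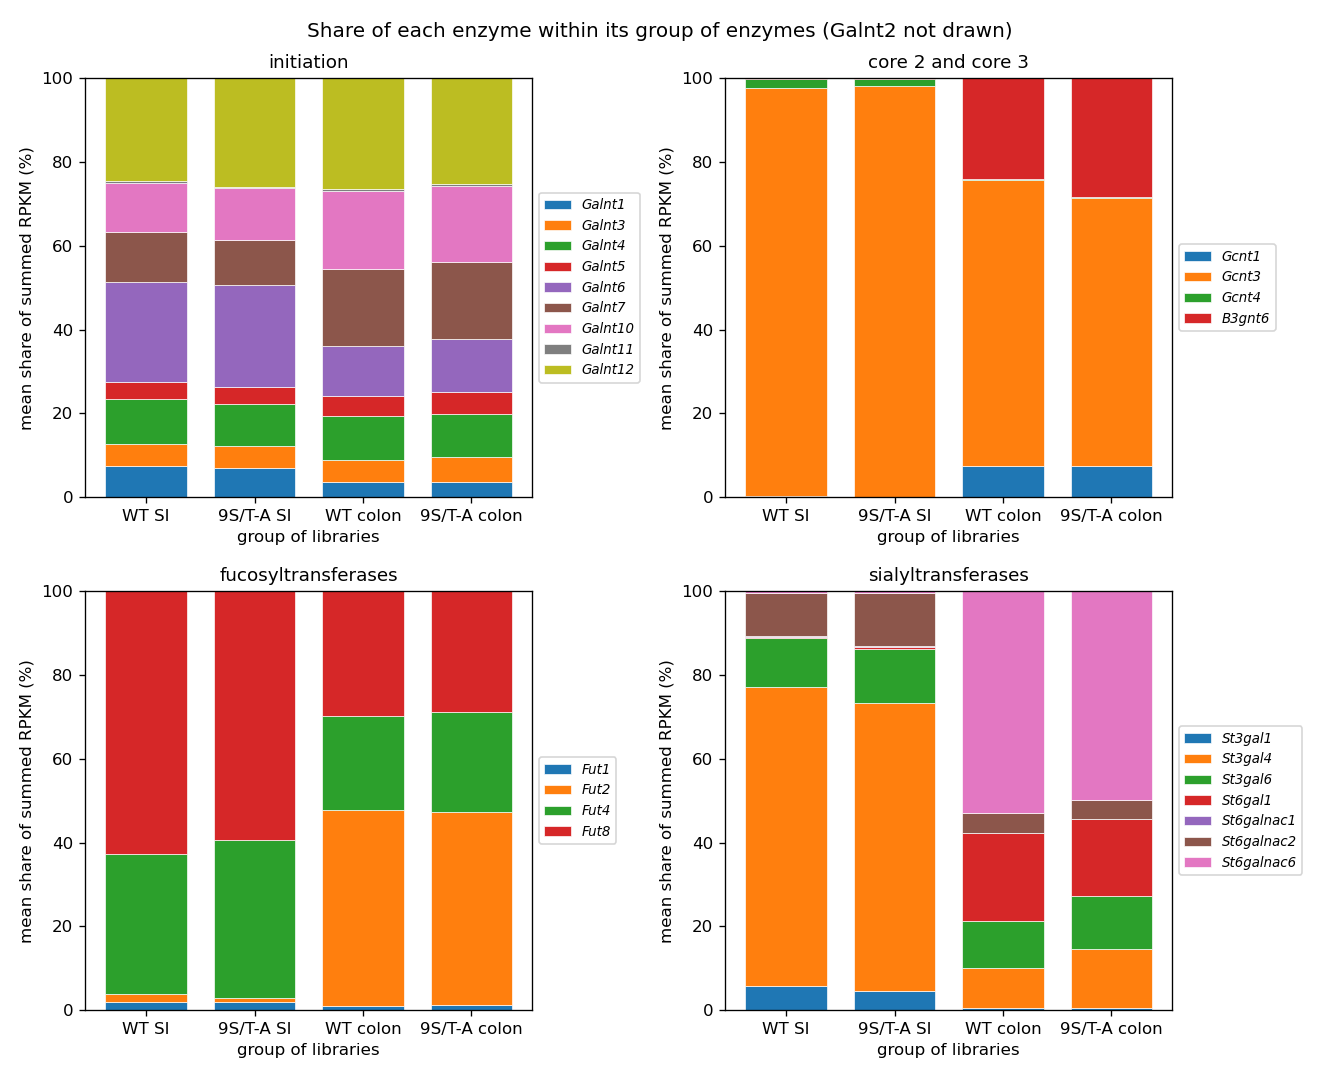
Mean share (%) of each gene in the summed RPKM of 4 groups of enzymes, by group of libraries. In colon St6galnac6 replaces St3gal4 as the leading sialyltransferase (53% against 71.4% for St3gal4 in WT SI), and B3gnt6 takes 23.9% of the core 2 and core 3 enzymes in WT.

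Of the 2 core 1 genes, 1 was called. C1galt1, the core 1 galactosyltransferase, had means of 41.1 RPKM in WT SI and 57.3 in WT colon, with a log2FC of 0.44 in WT and 0.55 in 9S/T-A, both called. Its chaperone gene C1galt1c1 was called in neither genotype, with -0.17 and -0.22.

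Of the 5 genes that lengthen the chain, 3 were called higher and 2 lower in colon in both genotypes, the lower ones changing sign under plain totals except B4galt1 in WT. B3galt5, which adds galactose to GlcNAc to build type 1 chains, had 1.97, 2.54 and 4.76 RPKM (lowest, median, highest) in WT SI and 62.5, 90.5 and 98.6 in WT colon. In 9S/T-A it had 1.72, 2.23 and 3.03 in SI and 54.9, 87.7 and 103 in colon. The tissues were separated in all libraries, with a log2FC of 4.86 (SE 0.21, adjusted p = 2.74e-11) in WT and 5.11 (SE 0.20, adjusted p = 1.38e-11) in 9S/T-A.

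B3gnt5, a GlcNAc transferase that acts mainly on glycolipids, had libraries from 1.69 to 2.31 RPKM in WT SI and from 11.5 to 20.1 in WT colon, and from 1.46 to 2.34 and 10.6 to 22.3 in 9S/T-A. The tissues did not overlap. Its log2FC between tissues was 3.07 (SE 0.13, adjusted p = 1.49e-11) in WT and 2.95 (SE 0.18, adjusted p = 1.38e-09) in 9S/T-A.

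B3gnt7, a GlcNAc transferase that extends chains on which keratan-type sulphated sugars are built, had 31.6, 39.7 and 46.8 RPKM in WT SI and 97.7, 127 and 172 in WT colon. In 9S/T-A SI it had 38.8, 55.6 and 76 RPKM, above the WT median in 5 of 6 libraries, and 76.5, 117 and 149.6 in colon. The tissues did not overlap in either genotype. The log2FC between tissues was 1.77 (SE 0.14, adjusted p = 2.06e-08) in WT and 1.03 (SE 0.17, adjusted p = 9.6e-05) in 9S/T-A. The difference of these was -0.75 (95% interval -1.19 to -0.31), with an adjusted p of 0.169.

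B3gnt3 and B4galt1, which extend chains with GlcNAc and galactose, were the lower ones, with log2FCs of -0.43 and -0.79 in WT and of -0.43 and -0.44 in 9S/T-A, all called; under plain totals the sign changed for B3gnt3 in both genotypes and for B4galt1 in 9S/T-A. Of the 2 genes that add terminal GalNAc, B4galnt2 was lower in colon in both genotypes (log2FC -0.87 in WT and -0.89 in 9S/T-A). B4galnt3, which adds GalNAc to GlcNAc, was higher (0.91 and 0.71). All 4 values were called.

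The fucosyltransferase genes were higher in colon or not called. Fut2, which adds the α1,2-linked fucose of the H antigen in secretions, had 0.651, 1.1 and 4.46 RPKM (lowest, median, highest) in WT SI and 93.1, 106 and 123 in WT colon. In 9S/T-A it had 0.589, 0.775 and 1.17 in SI and 80.5, 113 and 127 in colon. No SI library came near a colon library, and the highest WT SI value again came from replicate 7. The difference was a log2FC of 6.05 (SE 0.41, adjusted p = 4.92e-09) in WT, 6.67 without that library, and 7.02 (SE 0.19, adjusted p = 2.46e-13) in 9S/T-A.

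Fut2 took 1.92% ± 1.63 (SD, n = 6) of the summed RPKM of the 4 fucosyltransferases in WT SI and 46.9% ± 1.71 (SD, n = 6) in WT colon. Fut8, which adds the core fucose of N-glycans, led in SI with 62.7% ± 1.85 (SD, n = 6). Fut4, which makes Lewis x type fucose, and Fut8 were called higher in colon in both genotypes, by 0.86 and 0.35 on the log2 scale in WT and by 0.69 and 0.30 in 9S/T-A. Fut1, the other α1,2 fucosyltransferase, was low in all groups (means of 1.69 to 2.76 RPKM) and called in 9S/T-A (0.68, adjusted p = 0.000163) but not in WT (0.31, adjusted p = 0.1, but 0.0393 and 0.0216 without WT SI replicates 5 and 7), and the difference of the 2 effects was not called (adjusted p = 0.58).

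The median absolute log2FC of the initiating genes between tissues was 0.33 in WT and 0.35 in 9S/T-A, beside 0.47 and 0.49 over all genes tested. Of the 9 measured, 5 were called lower in colon in both genotypes: Galnt1, Galnt3, Galnt4, Galnt6 and Galnt12; under plain totals Galnt3, Galnt4 and Galnt12 changed sign in both genotypes, while Galnt1 and Galnt6 did not. Galnt11 was called higher in both (0.26 and 0.35), Galnt10 in WT alone (0.24, adjusted p = 0.0393, lost without any one of WT colon replicates 2, 3, 4 and 5, with adjusted p from 0.0652 to 0.0922), and Galnt5 and Galnt7 in neither.

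Galnt6, which glycosylates mucin-like proteins, had 131, 143 and 151 RPKM (lowest, median, highest) in WT SI and 42.4, 55.4 and 60.7 in WT colon. In 9S/T-A the libraries spanned 129 to 190 RPKM in SI, against 42.6 to 66.1 in colon. The tissues did not overlap, with a log2FC of -1.44 (SE 0.09, adjusted p = 2.45e-09) in WT and -1.48 (SE 0.13, adjusted p = 8.83e-08) in 9S/T-A. Galnt1, a broadly expressed initiating enzyme, had libraries from 39.4 to 49.9 RPKM in WT SI and from 12.9 to 17.2 in WT colon, and from 42.7 to 53.5 and 12.5 to 19.2 in 9S/T-A. Its log2FC was -1.49 (SE 0.09, adjusted p = 1.14e-09) in WT and -1.52 (SE 0.11, adjusted p = 1.26e-08) in 9S/T-A.

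Galnt12 and Galnt6 together led initiation in SI, with 24.6% and 24.1% of the summed RPKM in WT. In WT colon Galnt12 still held 26.4%, Galnt6 held 12%, and Galnt7 and Galnt10 held 18.4% and 18.6%. These shares rest on the division by length: of the summed CPM, Galnt12 took 13.4% in WT SI and 13.9% in WT colon, against 16.7% and 25.5% for Galnt10. The sum over the initiating genes was 592 RPKM in WT SI and 449 in WT colon. This comparison rests on TMM scaling. Plain totals moved the median log2FC of all genes in WT from 0.03 to 0.74 and changed the sign of Galnt3, Galnt4 and Galnt12.

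Of the remaining genes, Chst4, a GlcNAc-6-sulphotransferase, was called lower in colon (log2FC -0.73 in WT and -0.89 in 9S/T-A). St6galnac2, which sialylates GalNAc in core 1, was called in WT alone (0.39), and St6galnac1 in WT alone (1.01 at under 0.25 RPKM), a call that was lost without WT colon replicate 7 (0.72, adjusted p = 0.0548). Tmprss2, a transmembrane serine protease, was called lower in both genotypes (-0.44 and -0.38) and changed sign under plain totals.

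The comparison of 9S/T-A with WT asked whether preventing phosphorylation of ATOH1 changed these genes. In SI, 1 of the 39 genes passed the threshold, Gal3st2, against 1.94% of all genes tested. In colon 0 passed, against 0.318% of all genes; at an unadjusted p under 0.05 edgeR gave 4 of the 39 (Galnt3, B4galt1, St3gal4 and Fut1), beside 1497 of all 16997, and DESeq2 called 1, Fut1. The median absolute log2FC was 0.14 over the 39 genes and 0.13 over all genes in SI, and 0.10 and 0.09 in colon. In SI 12 of the 39 genes had an unadjusted p under 0.05, beside 2556 of all 16236. Plain library totals moved the median of all genes in SI from 0.00 to -0.11 and the share of calls higher in 9S/T-A from 53.3 to 29.1%. Summed goblet markers were 314996 to 443045 CPM in WT SI and 320252 to 507939 CPM in 9S/T-A SI, with 0 of 8 called. Of the Paneth markers 1 of 10 was called higher and 3 lower in 9S/T-A SI. Also called lower there were 2 of the 5 tuft markers tested, 1 of 8 enteroendocrine markers and 1 of the 3 stromal markers tested. No stem, cycling, absorptive or leukocyte marker was called in SI. In colon 1 of 8 goblet markers and 1 of the 4 leukocyte markers tested were called higher in 9S/T-A, and 0 of 10 Paneth markers were called. The part of these cells was not tested.

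**Figure D4:**
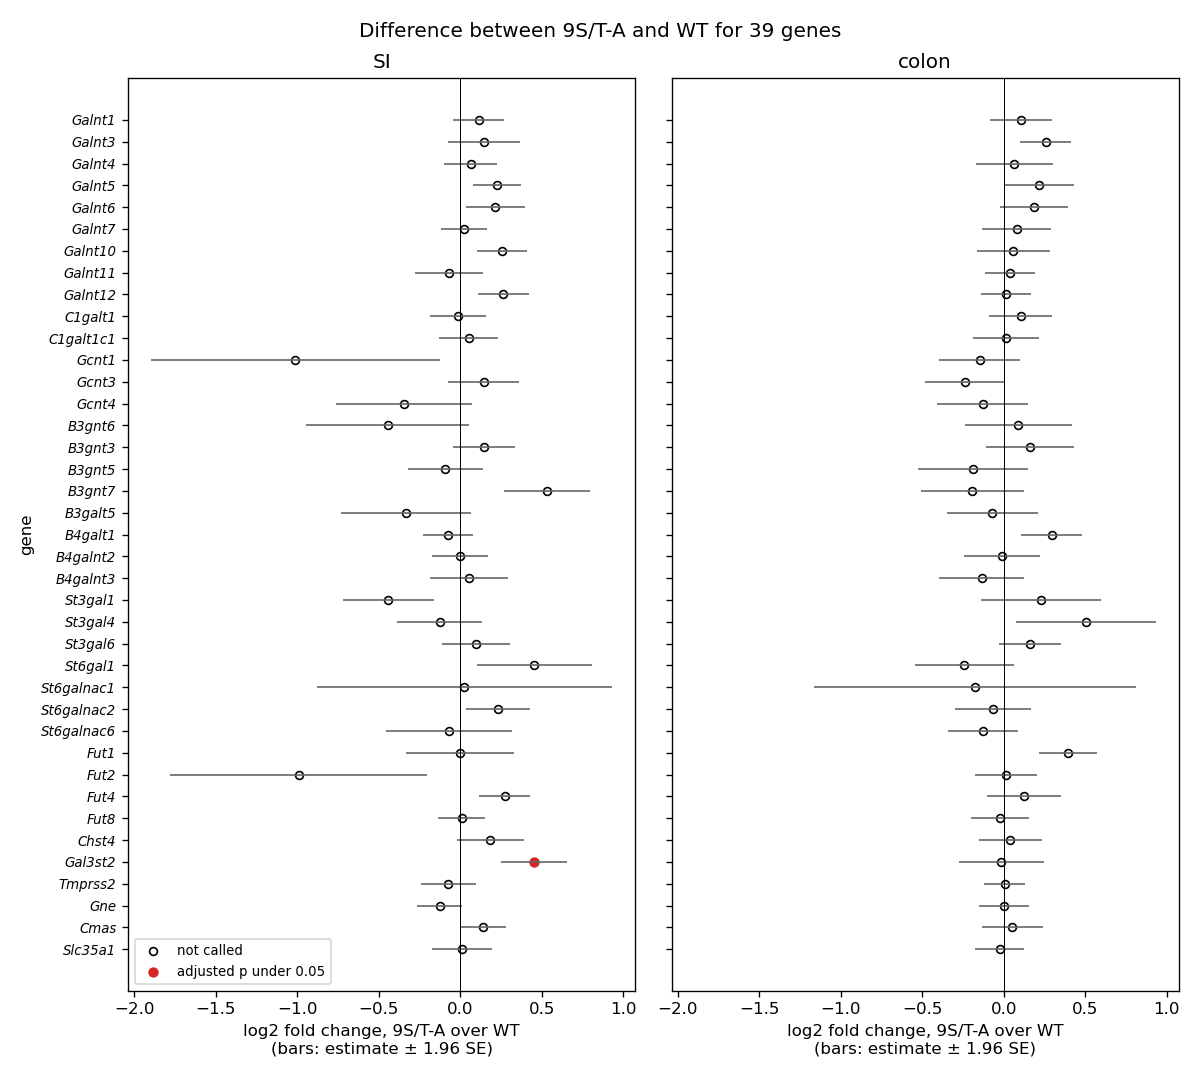
log2FC of 9S/T-A over WT for 39 genes in SI (left) and colon (right), with 95% intervals; the filled red point marks an adjusted p under 0.05. Only Gal3st2 in SI is filled (0.45), and most intervals include 0.

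Gal3st2, which adds sulphate to galactose, is shown with the 250 bases before its start because ATOH1 with its E-protein partners binds E-boxes, 6-letter sites of the form CANNTG. The capitals mark CAGCTG and CAGATG (or its reverse complement CATCTG).
Gal3st2, chr1:93861094-93861343 (plus strand): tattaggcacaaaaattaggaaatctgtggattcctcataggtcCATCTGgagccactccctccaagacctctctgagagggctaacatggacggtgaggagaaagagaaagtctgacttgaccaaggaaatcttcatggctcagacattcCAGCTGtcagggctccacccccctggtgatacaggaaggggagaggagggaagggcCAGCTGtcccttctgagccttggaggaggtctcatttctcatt
CAGCTG stood in the windows of 6 of the 29 matched genes (Galnt5, Gcnt4, B3gnt5, Chst4, Gal3st2 and Gne) and in 13% of all RefSeq windows, and CAGATG in those of 2 (Galnt10 and Gal3st2) and in 14.4%. Both strands were searched. These 2 letter runs were chosen after the levels were known. A match is not a bound site, and binding of ATOH1 was not tested.

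Gal3st2 had 177, 202 and 258 CPM (lowest, median, highest) in WT SI and 240.1, 286 and 337 in 9S/T-A SI, so the highest WT library, replicate 2, overlapped the 9S/T-A range. As a log2FC this was 0.45 (SE 0.10, adjusted p = 0.037). The call was lost when any one of 9 of the 12 libraries was left out, with adjusted p from 0.055 to 0.0958, and kept without WT SI replicate 2, 9S/T-A SI replicate 2 or 9S/T-A SI replicate 3. In colon the libraries ran from 133 to 226 CPM in WT and from 132 to 213 in 9S/T-A, with a log2FC of -0.02 (SE 0.13, adjusted p = 1). The difference between the 2 tissues in the effect of genotype was -0.48 (95% interval -0.84 to -0.13), with an adjusted p of 0.31.

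Gal3st2 has near-identical copies on chromosome 1, Gal3st2b and Gal3st2c, and 71.2% of its 50-base stretches, the length of the reads, also occur in them. The coding sequences are all 1191 bases long; Gal3st2b differs from Gal3st2 at 6 positions and Gal3st2c at 24. The lines show coding positions 994 to 1053 on GRCm38, the stretch of 60 bases with the most differences, with the 8 differing bases in capitals, to show how little sequence separates the copies.
Gal3st2: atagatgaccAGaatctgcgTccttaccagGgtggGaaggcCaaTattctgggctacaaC
Gal3st2b: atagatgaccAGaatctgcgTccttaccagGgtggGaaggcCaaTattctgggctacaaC
Gal3st2c: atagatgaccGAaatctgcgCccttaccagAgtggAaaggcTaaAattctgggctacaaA

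A read that matched several copies was counted at its primary alignment, so counts of the 3 copies are uncertain one by one. Gal3st2b was also called in SI (0.47, adjusted p = 0.0307), as was Gal3st2c (0.45, adjusted p = 0.0402). With the 3 copies summed into one gene, the log2FC in SI was 0.46 (SE 0.11, adjusted p = 0.0385), from 372 to 541 CPM in WT and from 508 to 721 in 9S/T-A. Between tissues the copies differed: in WT, Gal3st2c was higher in colon by 2.16 on the log2 scale (SE 0.13, adjusted p = 1.36e-09), with means of 41.6 CPM in SI and 189.7 in colon, while Gal3st2 was not called (-0.17, adjusted p = 0.25). In 9S/T-A Gal3st2 was called lower in colon (-0.65, adjusted p = 0.000205), and this sign changed under plain totals. With the copies summed, the log2FC between tissues was 0.31 in WT (SE 0.13, adjusted p = 0.0461) and -0.23 in 9S/T-A (SE 0.12, adjusted p = 0.117), so the call of Gal3st2 in 9S/T-A did not hold for the sum.

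**Figure D5:**
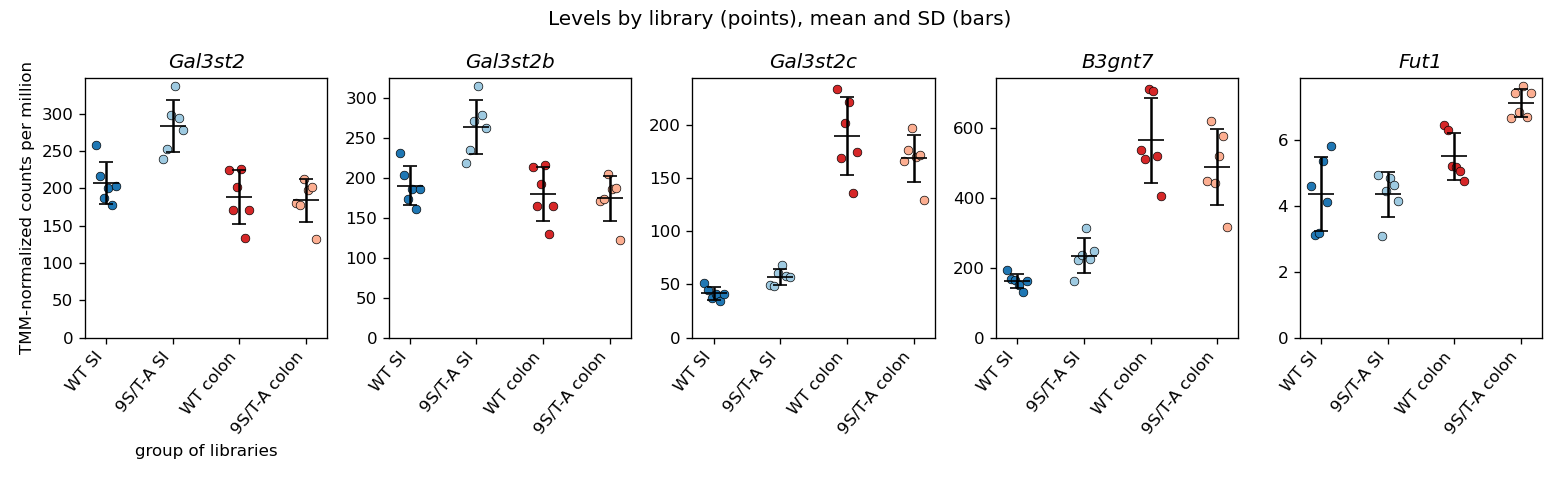
CPM of Gal3st2, its copies Gal3st2b and Gal3st2c, B3gnt7 and Fut1 in each library (points), with mean and SD (bars), by group. Gal3st2 in 9S/T-A SI spans 240.1 to 337 CPM against 177 to 258 in WT SI, and Gal3st2c is several-fold higher in colon.

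B3gnt7 had the largest positive difference between genotypes in SI of the 39 genes, 0.53 on the log2 scale (SE 0.13), and missed the threshold (adjusted p = 0.0583), which it passed without WT SI replicate 2 (0.0444) or 9S/T-A SI replicate 2 (0.00956). Fut2 and Gcnt1 had the largest negative ones, -0.99 (95% interval -1.78 to -0.20, adjusted p = 0.242) and -1.01 (95% interval -1.90 to -0.12, adjusted p = 0.294). Without WT SI replicate 7 these were -0.39 and -0.52. The supply genes Gne, Cmas and Slc35a1 differed between genotypes in SI by -0.13 to 0.14, and the intervals of these 3 together spanned -0.26 to 0.28. St6galnac6 differed by -0.07, with a wider 95% interval of -0.46 to 0.32.

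In colon, St3gal4 had the largest difference of the 39 genes, 0.50 (95% interval 0.07 to 0.93, adjusted p = 0.531). Fut1 had libraries from 1.85 to 2.51 RPKM in WT and from 2.59 to 2.97 in 9S/T-A, which did not overlap. Its log2FC was 0.39 (SE 0.09, adjusted p = 0.109). B4galt1 had libraries from 9.18 to 13.7 RPKM in WT and from 10.5 to 16 in 9S/T-A, with a log2FC of 0.29 (SE 0.10, adjusted p = 0.336). Galnt3, which glycosylates FGF23 among other substrates, had libraries from 20.8 to 26.5 RPKM in WT and from 23.2 to 32.6 in 9S/T-A, with a log2FC of 0.26 (SE 0.08, adjusted p = 0.296).

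The effect of genotype was called as different between tissues for 0 of the 39 genes, against 0.412% of all genes; edgeR gave 9 of the 39 an unadjusted p under 0.05, beside 1740 of all 17953, and DESeq2 also called 0. Under plain totals the share of all such calls that were positive moved from 70.3 to 89%. The differences of the 39 genes ranged from -0.75 (B3gnt7) to 0.97 (Fut2), and that of Fut2 was 0.40 without WT SI replicate 7.

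Related genes outside the 40 were counted from lists of 44 further transferases, 24 genes of sugar donor supply and 8 mucins. Of their calls between tissues, 0 mucins changed sign under plain totals in either genotype, against B4galt3 in both genotypes and B4galnt4, Gal3st1, Galk2 and Tsta3 in 9S/T-A. Of the further transferases, 22 were tested between tissues in WT, with 12 called higher (33.1% of all genes) and 8 lower (30.4%) in colon. In 9S/T-A 24 were tested, with 13 higher (32.9% of all genes) and 9 lower (28.0%). The 5 largest differences in WT were those of Fut9, a Lewis x fucosyltransferase, at 0.00365 CPM in SI and 6.01 in colon; B3galt2, a galactosyltransferase, at 0.0661 and 34.7; Chst5, a GlcNAc-6-sulphotransferase, at 0.0043 and 2.04; Abo, the blood group A and B transferase, at 0.0768 and 22.9; and Galnt18, at 0 and 0.399. No fold is given for these genes, which were at or near 0 in SI. In SI, A4gnt, which adds the α1,4-linked GlcNAc of gastric-type mucins, was called lower in 9S/T-A, from 13.5 CPM ± 3.41 (SD, n = 6) in WT to 6.64 ± 1.62 (SD, n = 6), by -1.03 on the log2 scale (SE 0.18, adjusted p = 0.0072). Its difference of effects between tissues was also called, at 1.56 on the log2 scale (SE 0.23, adjusted p = 0.00116).

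Of the 24 supply genes, 16 were called higher in colon in each genotype, against 33.1% of all genes in WT and 32.9% in 9S/T-A. In WT 1 was lower (30.4% of all genes), and in 9S/T-A 3 were (28.0%). The 5 largest differences in WT were those of Casd1, which acetylates sialic acid (2.47), Uap1l1 (-2.12), Nans, which makes sialic acid phosphate (1.67), Fpgt, of fucose salvage (1.01), and Gfpt1, the first enzyme of hexosamine synthesis (0.96). Nans had means of 193 CPM in WT SI and 628 in WT colon. Casd1 was also called lower in 9S/T-A SI, at 14.5 CPM ± 1.05 (SD, n = 6) in WT and 11.3 ± 0.975 (SD, n = 6) in 9S/T-A, with a log2FC of -0.36 (SE 0.08, adjusted p = 0.0351).

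Of the mucins that carry these chains, 7 were tested, with 2 higher and 3 lower in colon in WT, and 3 higher and 3 lower in 9S/T-A. Among all genes 63.6% were called in WT and 60.9% in 9S/T-A. Muc2, the main secreted mucin, fell from 27638 CPM in WT SI to 12171 in WT colon (log2FC -1.22), and Muc3a (-2.80) and Muc13 (-1.10) were lower too, while the membrane mucin genes Muc1 (6.41) and Muc4 (1.29) were higher. Muc3, a separate entry of the files, was not among the 3 called lower in WT. In SI, Muc4 was called lower in 9S/T-A, from 75.8 CPM ± 15.8 (SD, n = 6) to 43.4 ± 6.39 (SD, n = 6), with a log2FC of -0.81 (SE 0.13, adjusted p = 0.00497).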

How the data were processed

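The authors aligned 50-base single-end reads from stranded libraries with TopHat2 2.1.1 to GRCm38.p3 and deposited raw read counts per gene from Subread 1.5.2 (featureCounts, reverse strand, primary alignments only, per the file headers). DESeq2 1.14.1 is also named in the submitters' processing notes. Of 45513 gene IDs, 97.96% had a symbol, and 0 of the 60 same-group pairs of libraries were identical. Genes were filtered (filterByExpr), scaled (TMM) and tested with edgeR 4.0.16 quasi-likelihood fits of the groups compared, two-sided, with Benjamini-Hochberg adjustment over all genes. RPKM used summed exon length, and SE is the log2FC over the square root of F. As a check of the code, the fits were run on counts simulated with few genes changed, evenly up and down. Such counts do not test the scaling between tissues. Alternatives were DESeq2 1.42.0, other scalings and filters, a sex term, a replicate block, all 24 libraries together and leaving out each library. All 40 genes are named, with full statistics for those called for genotype with or without the block, or at least 2-fold in both genotypes for tissue. The members and lists were chosen with earlier results of these data known, and the sialyltransferase shares, the motifs and the summed Gal3st2 copies after values were seen. Promoters are from RefSeq on GRCm38.p6 and coding spans from GENCODE M21 on GRCm38. St6galnac1 had 3 to 100 counts per library.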

Additional observations from a re-analysis of the deposited data

Results flagged for a closer look

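Within each group of 6 libraries, 11 of 160 gene and group combinations held a library that stood apart from the others by Dixon's test at the 95% level, and chance gives such a library in about 1 group in 20. Of these, 6 fell in 9S/T-A colon replicate 7. It was the lowest of its group for Galnt6 (164.8 CPM), Galnt10 (349.5 CPM), Galnt12 (221.6 CPM), B3gnt3 (131.6 CPM) and Fut4 (140.9 CPM), and the highest for St6galnac1 (1.368 CPM). WT SI replicate 7 was the highest of its group for Gcnt1 (6.036 CPM) and Fut2 (12.78 CPM). WT colon replicate 7 was the lowest for B3gnt6 (40.13 CPM) and B3galt5 (384.9 CPM), and WT colon replicate 6 the highest for St3gal1 (13.28 CPM).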

How the results depend on the processing

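All 15 genes with at least 2-fold differences between tissues kept their direction and their call in both genotypes under each alternative run, and the counts of called genes between tissues stayed within 1.5 times. Counts for genotype moved more. In SI, 315 genes were called, against 780 by DESeq2, 520 with all 24 libraries and 188 to 550 with a library left out (188, 200 and 205 without WT SI replicates 3, 4 and 6, and 550, 195 and 194 without 9S/T-A SI replicates 2, 4 and 5). Of the 40 genes, 1 was called, against 5 by DESeq2 (B3gnt7, Gal3st2, Galnt10, Galnt12 and Fut4), 0 with all 24 libraries and 0 to 4 with a library left out. In colon, 54 genes were called, against 247 by DESeq2, 90 with no filter, 89 with sex as a term, 103 with all 24 libraries and 30 to 72 with a library left out (31 and 30 without WT colon replicates 2 and 5). DESeq2 called 1 of the 40 there, Fut1. The difference of effects was called for 74 genes, against 258 by DESeq2 and 50 to 112 with a library left out (112 without 9S/T-A SI replicate 2). The cause of these differences was not tested.

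Same-numbered libraries shared a replicate number and the sex given in the labels, which name no shared mouse, litter or day. Their deviations correlated above 0.1 in 3, 5, 5 and 5 of 6 pairs (genotype in SI and colon, tissue in WT and 9S/T-A), and 2, 4, 5 and 6 libraries correlated best with their own number, a hint from the data and not the design. With the replicate block, 477 of 16236 genes tested were called in SI, 385 of 16997 in colon and 342 of 17953 for the difference of effects. Of the 39 genes tested among the 40, the block called 0 in SI (Gal3st2 0.45, adjusted p = 0.0689) and 3 in colon: Galnt3 (0.0284), B4galt1 (0.0347) and Fut1 (0.0469). Gal3st2 also missed the threshold with all 24 libraries (adjusted p = 0.0517).

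Depth limits St6galnac1, and sequence shared with other genes limits Galnt2 and the Gal3st2 copies. Without the division by length, 67 of the 100 shares given by group of genes moved by more than their SD.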
